A study of Mus musculus with 6 samples.

Results

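Condensin and type II topoisomerase are the main machines that shape and untangle mitotic chromosomes, and their transcripts were followed here in muscle stem cells after injury. The 10 genes were taken by symbol from the count table: Smc2, Smc4, Ncapd2, Ncapd3, Ncapg, Ncapg2, Ncaph, Ncaph2, Top2a and Top2b, of 45527 named genes in all. Gene positions below are those of GENCODE M21 on GRCm38. Each passed the filter on low counts and was among the 16252 genes tested. RNA was sequenced from satellite cells, stem cells of muscle that express Pax7, sorted by yellow fluorescence 24 h after lower hindlimb muscles received 30 µl of cardiotoxin, a toxin that kills muscle fibres and starts regeneration. The 3 control libraries had the genotype Pax7creER:Paxbp1flox/+:R26R-YFP and the 3 Paxbp1-iKO libraries the genotype Pax7creER:Paxbp1flox/flox:R26R-YFP. Both groups therefore shared the cardiotoxin injury, a Cre recombinase made under the Pax7 promoter, the fluorescent reporter and at least 1 floxed allele of Paxbp1, and the controls may have lost 1 allele. The sources used here give neither ages nor the schedule of Cre induction.

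Condensin is a ring-shaped ATPase that extrudes loops of DNA and so compacts chromatids. Smc2 and Smc4 encode its long coiled-coil arms, which all condensin shares. Condensin I adds Ncaph, the kleisin that closes the ring, with the HEAT-repeat proteins Ncapd2 and Ncapg, and meets chromosomes once the nuclear envelope breaks down. Condensin II uses Ncaph2, Ncapd3 and Ncapg2 instead and is nuclear throughout the cell cycle. Topoisomerase II passes a DNA duplex through a transient break in another, which separates sister chromatids: Top2a encodes the form made in dividing cells, and Top2b the form also found in resting and differentiated cells.

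The libraries held between 23327359 and 28050748 counts. Paxbp1, the targeted gene, was higher in the libraries labelled iKO (log2 fold change 0.68 ± 0.13 SE, adjusted p = 0.00954), opposite to what a knockout label would give for the whole transcript. Counts over the whole gene cannot show whether a floxed part was removed, so the group is called iKO-labelled throughout and every direction rests on that label. The summed CPM (counts relative to the scaled library size) of the 10 satellite cell markers ran from 9855 to 10361 in the controls and from 12332 to 12957 in the iKO-labelled libraries, and none of these markers was at 0. Of the 10, 5 were called higher (Sdc4, Vcam1, Chodl, Cdh15 and Pax7) and 3 lower (Myf5, Itga7 and Des). Among all tested genes 8.15% were called higher and 12.3% lower. Sdc4 alone went from a mean of 3911 to 6087 CPM. The design speaks of 3 pairs of mice, but no label gives the animal behind each library. P-values therefore reflect no more than the spread among libraries, in which animal and technical differences cannot be told apart.

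Transcripts of chromosome condensation were lower in the iKO-labelled cells. Of the 10 genes, 9 fell and 0 rose at an adjusted p under 0.05 (edgeR's quasi-likelihood test, Benjamini-Hochberg over all genes tested), where 12.3% of all tested genes fell and 8.15% rose. DESeq2 and limma-voom also called 0 of the 10 higher, and 0 were higher at an unadjusted edgeR p under 0.05. The control and iKO-labelled libraries did not overlap for any of the 10, each of them lower in the iKO-labelled group. Among all tested genes 39.8% did not overlap, 20.9% with the iKO-labelled group lower and 18.9% with it higher. The median log2 fold change was -2.32, beside 0.02 over all tested genes. Fold changes ran from -5.86 for Top2a to -0.43 for Top2b, the gene that missed the threshold. In bulk samples, fewer cells that carry a transcript and less of it per cell cannot be told apart. Values below are CPM as mean ± SD (n = 3 per group), changes are log2 fold changes ± SE, negative where the iKO-labelled group is lower, and adjusted p-values are edgeR's.

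**Figure D1:**
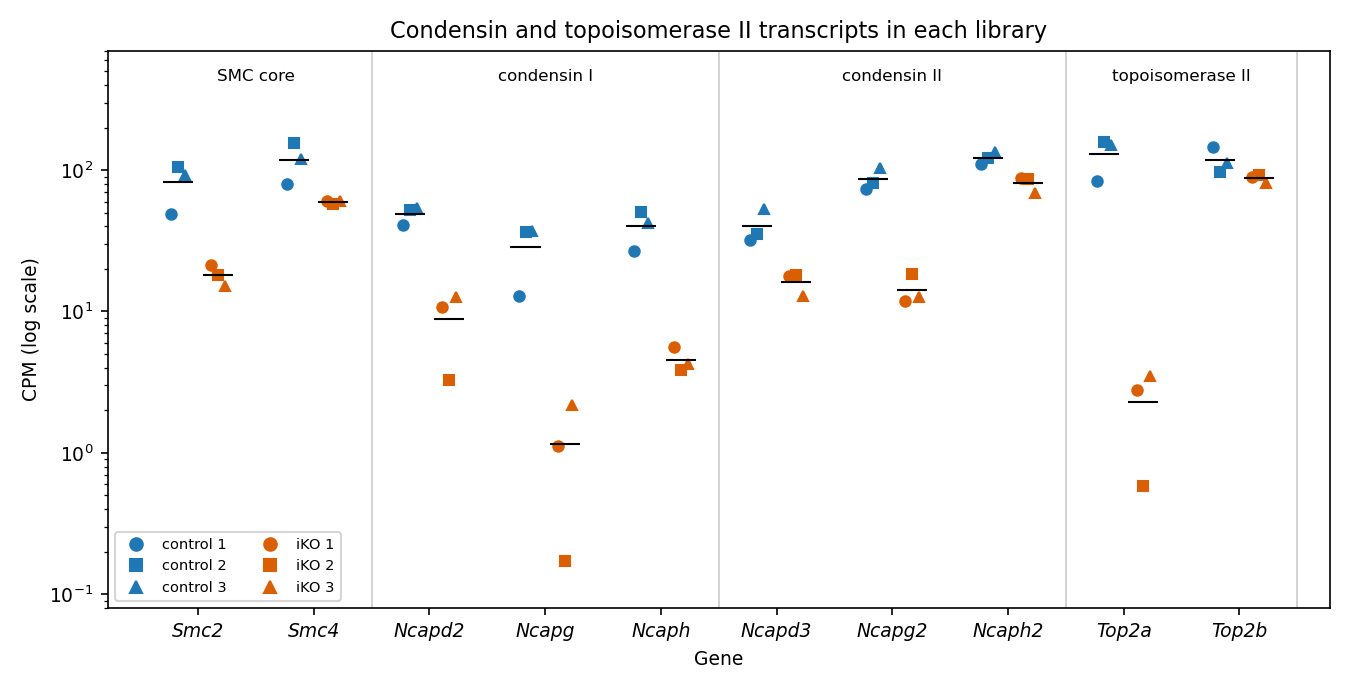
CPM of the 10 genes in each library on a log scale, with controls in blue, iKO-labelled libraries in orange, the replicate number as the marker shape and black lines for the group means. Every orange point of a gene lies below its blue points, by far most for Top2a and Ncapg, where iKO 2 is lowest.

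Top2a had the larger fall of the topoisomerase II genes. The gene (chr11:98992943-99024189, minus strand) stood at 83.7, 158 and 149.9 CPM in controls 1 to 3, against 2.77, 0.580 and 3.49 CPM in iKO 1 to 3. All 3 iKO-labelled libraries were far under the lowest control. The mean went from 130.5 ± 40.7 to 2.28 ± 1.51 CPM, a change of -5.86 ± 0.55 (57.9-fold lower, adjusted p = 4.4e-04), the 11th largest fall among all tested genes. The level in iKO 2 rests on 17 counts, for which counting error alone gives a 95% Poisson interval of 9.90 to 27.2. The value was -5.39 without iKO 2, and -3.56 on log2(FPKM + 1), where low values are compressed.

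Top2b, its paralog made in dividing and resting cells alike (chr14:16365179-16435462, plus strand), stood at 146.7, 97.5 and 112.6 CPM in the controls and at 89.6, 92.6 and 81.8 CPM in the iKO-labelled libraries. Control 2 was only slightly above the highest iKO-labelled library, although the groups did not overlap. The difference was -0.43 ± 0.15 (119 ± 25.2 against 88.0 ± 5.60 CPM), and an adjusted p of 0.0841 left it uncalled. It was called with DESeq2 (adjusted p = 0.0342), without a count filter and without control 2 (edgeR adjusted p = 0.0369). Exons of Top2b overlap those of Rarb on the other strand over 1793 bases in GENCODE M21, and reads there cannot be assigned without strand.

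The ratio of Top2a to Top2b is free of library scaling. On log2 counts it was -0.81, 0.70 and 0.41 in controls 1 to 3, against -5.01, -7.28 and -4.54 in iKO 1 to 3. The groups were far apart: the means differed by -5.71 (exact 2-sided permutation test over the 6 libraries, p = 0.1, adjusted p = 0.1 over 5 gene pairs, higher in 3 of 3 controls). With 3 libraries against 3, 0.1 is the smallest p that the test can give. Without iKO 2 the difference was -4.87. The deposited FPKM (fragments per kilobase of gene, scaled by a median-of-ratios size factor for each library) allow for gene length. In these, Top2a made up 28.7%, 53.3% and 48.4% of the topoisomerase II level in the controls and 2.13%, 0.439% and 2.92% in the iKO-labelled libraries. The length behind these FPKM is 6355 bases for Top2b, where the merged exons of GENCODE M21 span 14613. The same counts were also divided by the GENCODE lengths, after seeing the data and without recounting reads over the GENCODE exons. The Top2a share was then 48.0%, 72.4% and 68.3% in the controls against 4.77%, 1.005% and 6.47% in the iKO-labelled libraries. This share thus depends on the length used, while the groups stayed apart. With either length, type II topoisomerase transcripts were shared between both genes in the controls and nearly all from Top2b in the iKO-labelled cells.

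The regions just before the transcription starts of both genes are shown because the paralogs differed widely in their change. They come from RefSeq promoters of GRCm38.p6, 5′ to 3′ on the strand of the gene. Capitals mark matches, on either strand, to CCAAT and to the letters TTTGAA or TTCGAA of the cell cycle genes homology region (CHR), an element known from promoters of mitotic genes. The Top2a region is chr11:99024190-99024349 on the minus strand and the Top2b region chr14:16365019-16365178 on the plus strand, and neither overlaps an exon in GENCODE M21.
Top2a: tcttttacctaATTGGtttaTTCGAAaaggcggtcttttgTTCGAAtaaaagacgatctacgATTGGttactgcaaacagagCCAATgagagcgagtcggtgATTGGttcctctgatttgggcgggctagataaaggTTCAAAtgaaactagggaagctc
Top2b: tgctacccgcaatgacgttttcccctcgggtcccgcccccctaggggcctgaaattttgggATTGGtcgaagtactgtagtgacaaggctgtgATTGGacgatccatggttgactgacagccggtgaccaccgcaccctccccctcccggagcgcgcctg
The 300-base promoter of Top2a (250 bases before to 50 after the start) held 6 CCAAT matches, and 5 or more are found in 0.271% of the 32851 mouse promoters searched. It also held 4 CHR matches, the nearest 23 bases before the start. The CCAAT matches 227 and 189 bases before the start and the CHR match 179 bases before it lie outside the stretch printed. The Top2b promoter held 2 CCAAT matches, 126 and 94 bases before the start, and no CHR match. Of the promoters searched, 11.7% held 2 or more CCAAT matches and 19.2% held at least 1 CHR match. The share with 4 CHR matches is not given here.

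The SMC arms fell unequally. Smc2 (chr4:52439243-52488260, plus strand) stood at 48.7, 105.1 and 92.6 CPM in the controls and 21.2, 18.2 and 15.2 CPM in the iKO-labelled libraries. Control 1 was well under the other controls, yet above every iKO-labelled library. The change was -2.17 ± 0.29 (82.1 ± 29.6 to 18.2 ± 3.02 CPM, 4.52-fold lower, adjusted p = 0.00181). Smc4 (chr3:69004738-69034623, plus strand) stood at 80.3, 155.5 and 119.7 CPM in the controls and at 60.3, 57.9 and 60.2 CPM in the iKO-labelled libraries, which were almost level with each other. Its change was -0.995 ± 0.214 (1.99-fold lower, adjusted p = 0.0142), a call that ended without iKO 2 (adjusted p = 0.0585) or iKO 3 (adjusted p = 0.0558) and on unfiltered log2(FPKM + 1).

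Although their proteins pair in every condensin, Smc2 and Smc4 thus did not keep their ratio. In FPKM, Smc2 stood at a ratio to Smc4 of 0.577, 0.642 and 0.736 in the controls (1 to 3) and of 0.334, 0.299 and 0.240 in the iKO-labelled libraries (1 to 3). All 3 iKO-labelled libraries lay under the lowest control. The log2 count ratio differed by -1.17 between the groups (exact permutation p = 0.1, the smallest possible), with -1.28 to -1.04 when any library was left out.

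All 3 subunits specific to condensin I fell, and their median change was -3.13. Ncapg, a HEAT-repeat subunit (chr5:45669919-45700546, plus strand), stood at 12.97, 36.5 and 36.9 CPM in the controls and at 1.12, 0.170 and 2.19 CPM in the iKO-labelled libraries. Control 1 was well under the other controls, and iKO 2 well under the other iKO-labelled libraries. The change was -4.65 ± 0.76 (28.8 ± 13.7 to 1.16 ± 1.01 CPM, 25.1-fold lower, adjusted p = 0.00463). Its size rests on 32, 5 and 54 counts in iKO 1 to 3, where 5 counts carry a Poisson interval of 1.62 to 11.7, and it was -4.13 without iKO 2, -5.48 without iKO 3 and -2.02 on log2(FPKM + 1). Exons of Ncapg overlap those of Lcorl on the other strand over 944 bases (13.4% of its exon length in GENCODE M21). Lcorl held 212 to 745 counts per library, so some of the low Ncapg counts may be assigned wrongly. How many was not tested.

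Ncaph, the kleisin of condensin I (chr2:127103809-127133954, minus strand), stood at 26.8, 51.0 and 42.5 CPM in the controls and at 5.57, 3.85 and 4.26 CPM in the iKO-labelled libraries. Its groups were cleanly apart, and the change was -3.13 ± 0.29 (40.1 ± 12.3 to 4.56 ± 0.900 CPM, 8.78-fold lower, adjusted p = 4.1e-04). Ncapd2, the other HEAT-repeat subunit (chr6:125168007-125191701, minus strand), stood at 41.0, 52.6 and 54.3 CPM in the controls and at 10.8, 3.27 and 12.6 CPM in the iKO-labelled libraries. Here iKO 2 was again the lowest by far. The change was -2.47 ± 0.43 (5.56-fold lower, adjusted p = 0.00625) and -2.08 without iKO 2.

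The subunits specific to condensin II fell as well, with a median of -1.31 and a wider range. Ncapg2 (chr12:116405402-116463731, plus strand) stood at 73.6, 81.3 and 103.5 CPM in the controls and at 11.8, 18.3 and 12.7 CPM in the iKO-labelled libraries. It had the smallest adjusted p of the 10 genes: the change was -2.59 ± 0.22 (86.1 ± 15.5 to 14.3 ± 3.52 CPM, 6.03-fold lower, adjusted p = 2.5e-04). Ncapd3, the HEAT-repeat subunit beside it (chr9:27030175-27095315, plus strand), stood at 31.8, 35.5 and 52.9 CPM in the controls and at 17.8, 17.9995 and 12.8 CPM in the iKO-labelled libraries. Its change was -1.31 ± 0.24 (2.47-fold lower, adjusted p = 0.00715). For both genes iKO 2 was the highest of the iKO-labelled libraries, while it was the lowest for Ncapd2, Ncapg, Ncaph and Top2a.

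Ncaph2, the kleisin of condensin II, changed least among the condensin genes. The gene (chr15:89355719-89372826, plus strand) stood at 110.4, 121 and 133.6 CPM in the controls and at 87.4, 86.0 and 69.1 CPM in the iKO-labelled libraries. The groups did not overlap, and the change was -0.59 ± 0.13 (1.51-fold lower, adjusted p = 0.0134). With control 3 left out it was no longer called (adjusted p = 0.0536). Exons of Ncaph2 overlap Sco2 over 829 bases (19.7% of its exon length) and Tymp over 535 bases (12.7%) on the other strand. Sco2 held 0 counts and Tymp 5 to 34 per library. Reads there cannot be assigned without strand, so these low counts do not show that all Ncaph2 counts come from Ncaph2. How many may be assigned wrongly was not tested.

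**Figure D2:**
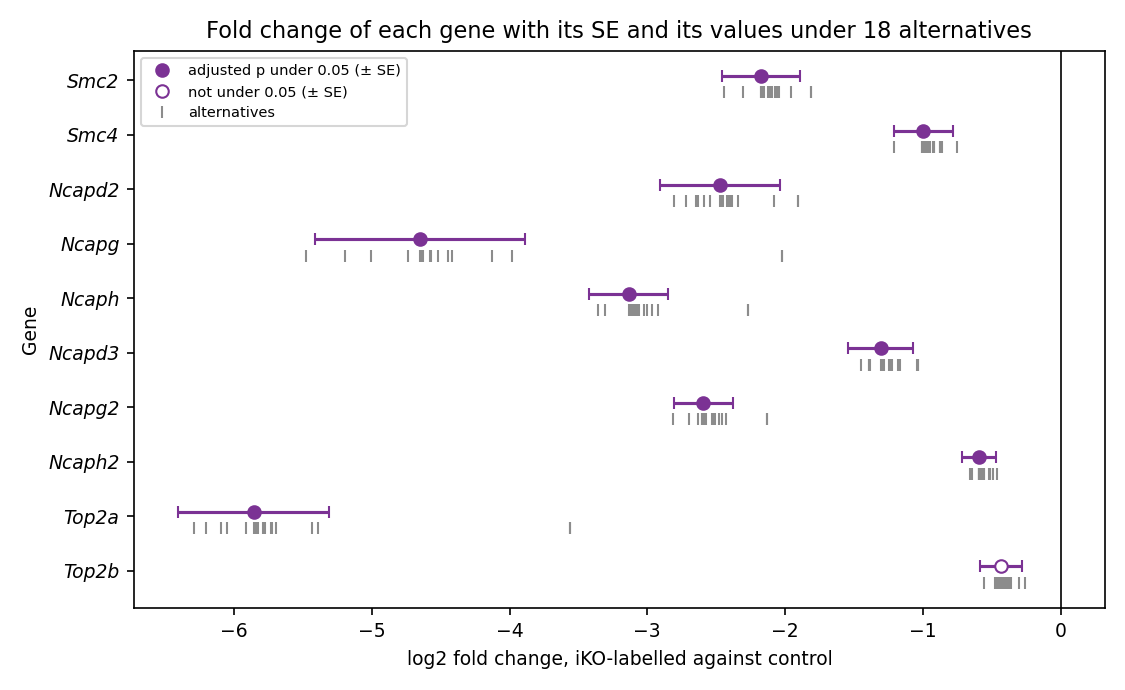
log2 fold change of each gene in the iKO-labelled against the control libraries, with its SE (filled where the adjusted p was under 0.05, open for Top2b) and, as grey ticks, its values under 18 other ways of processing. All values lie under 0, from -6.29 for Top2a without iKO 3 to -0.26 for Top2b without control 1.

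Condensin I was set against condensin II gene by gene, as the log2 ratio of counts within each library. For the kleisins, Ncaph over Ncaph2 was -2.04, -1.25 and -1.65 in controls 1 to 3, against -3.97, -4.47 and -4.01 in iKO 1 to 3. The groups were well apart, with a difference of -2.50 (exact permutation p = 0.1, the smallest possible) that ran from -2.70 to -2.30 when any library was left out. For the HEAT-repeat pair Ncapd2 over Ncapd3 the ratio was 0.36, 0.57 and 0.04 in the controls and -0.71, -2.45 and -0.03 in the iKO-labelled libraries. Here iKO 3 lay just under control 3, and the difference of -1.39 (exact permutation p = 0.1) shrank to -0.69 without iKO 2.

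For Ncapg over Ncapg2 the ratio was -2.50, -1.16 and -1.49 in the controls and -3.38, -6.61 and -2.52 in the iKO-labelled libraries. Again iKO 3 was nearly level with the lowest control. The difference of -2.46 (exact permutation p = 0.1) was -1.23 without iKO 2, and the groups overlapped with a pseudocount of 5 or on log2(FPKM + 0.1) (exact permutation p = 0.2 in both). The gap between the groups was thus wider than the spread of either group for the kleisins, whereas the nearest libraries of both groups almost met for the HEAT-repeat subunits.

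**Figure D3:**
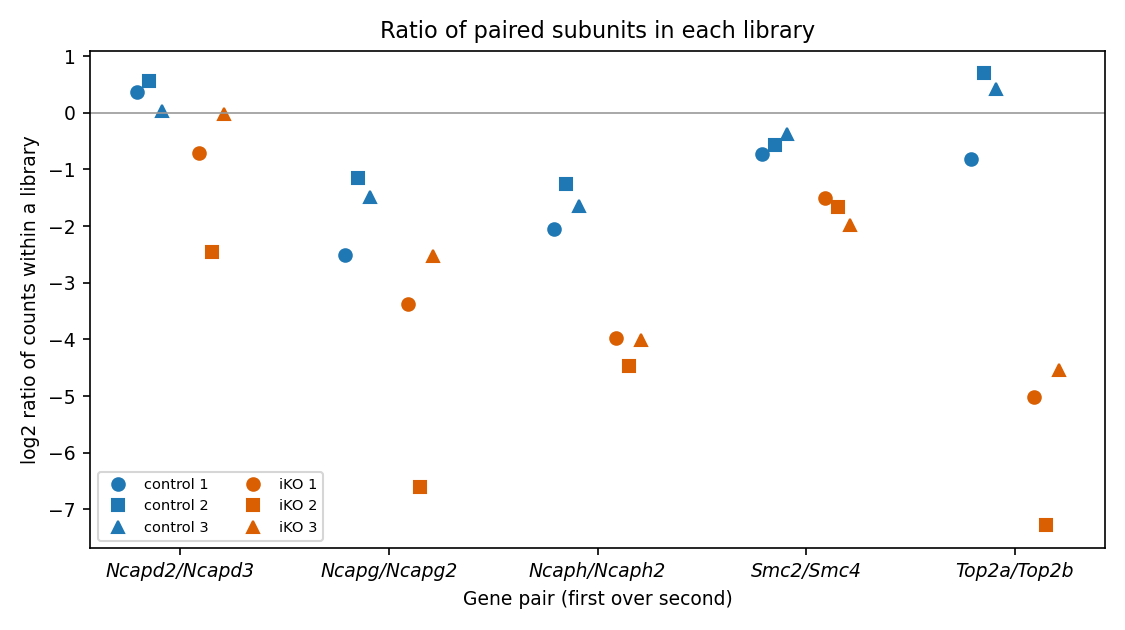
log2 ratio of counts of paired genes within each library, first gene over second, with controls in blue, iKO-labelled libraries in orange and replicate numbers as marker shapes. The groups are far apart for Top2a/Top2b and apart for Ncaph/Ncaph2 and Smc2/Smc4, while iKO 3 nearly meets the lowest control for Ncapd2/Ncapd3 and Ncapg/Ncapg2.

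Levels per gene length are given in the deposited FPKM. The 3 condensin I subunits summed to 14.1, 24.9 and 23.3 FPKM in controls 1 to 3 and to 3.14, 1.42 and 3.26 FPKM in iKO 1 to 3. The 3 condensin II subunits summed to 41.7, 46.8 and 56.2 FPKM in the controls and to 25.5, 26.2 and 20.4 FPKM in the iKO-labelled libraries. Condensin I was the smaller part everywhere: its share of both sums was 29.8% ± 4.77 (SD, n = 3) in the controls against 9.96% ± 4.39 in the iKO-labelled libraries. With the same counts divided by GENCODE lengths, these shares were 32.8% ± 5.01 and 10.6% ± 4.61. Ncaph2 alone was 59.1% ± 2.91 of the condensin II sum in the controls against 79.1% ± 1.71 in the iKO-labelled libraries (68.1% ± 2.65 against 84.7% ± 1.32 with GENCODE lengths). With both kleisins left out, the ratio of condensin I to condensin II was 0.494, 0.722 and 0.549 in the controls and 0.375, 0.0904 and 0.545 in the iKO-labelled libraries, so that iKO 3 lay above control 1 and the groups overlapped.

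**Figure D4:**
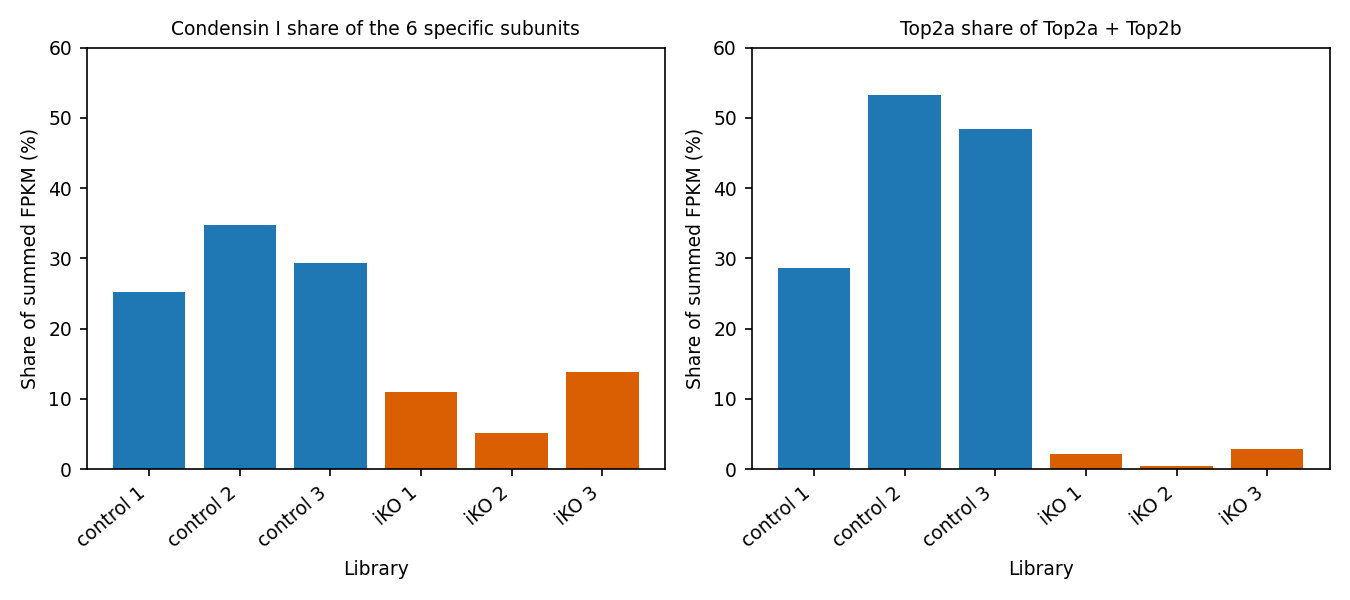
Share of condensin I in the summed FPKM of the 6 subunits specific to either complex (left) and share of Top2a in the summed FPKM of Top2a and Top2b (right), as 1 bar per library, in percent. The iKO-labelled libraries hold 5.15% to 13.8% condensin I and 0.439% to 2.92% Top2a, below all controls in both panels.

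In the controls the order of mean FPKM was Ncaph2 (28.3), Smc4 (22.2), Top2b (18.2), Smc2 (14.7), Top2a (14.2), Ncapg2 (12.7), Ncaph (9.10), Ncapd2 (7.68), Ncapd3 (7.13) and Ncapg (3.99). Each neighbour in that order overlapped the next over the 3 libraries, except Ncapd3 and Ncapg. In the iKO-labelled libraries Ncaph2 (19.0), Top2b (13.7) and Smc4 (11.3) came first, each clear of the next, and Smc2 followed at 3.28 FPKM, clear of Smc4. Top2a moved from the fifth place to the ninth, at 0.250 ± 0.166 FPKM, and Ncapg was last at 0.162 ± 0.141 FPKM. The gene length behind the deposited FPKM equalled the merged exon length in GENCODE M21 for 7 of the 10 genes, and was shorter for Top2b (6355 against 14613 bases), Ncapd3 (5499 against 7891) and Ncapg2 (6604 against 9939). Orders, sums and shares that involve these 3 genes depend on that length. Dividing by another length changes neither the fold change of a single gene nor the difference in a log2 ratio of 2 genes. Whether counts over the GENCODE exons would differ was not tested.

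Which library was lowest was shared by most of these genes among the controls and not among the iKO-labelled libraries. Control 1 was the lowest control for 9 of the 10 genes and the highest for Top2b. How often control 1 was lowest over all tested genes is not given here, so this is not read as a trait of these genes. Among the iKO-labelled libraries, iKO 2 was lowest for 5 genes (Smc4, Ncapd2, Ncapg, Ncaph and Top2a), iKO 3 for 4 and iKO 1 for 1. The ratio of the highest to the lowest control was 2.85 for Ncapg and 1.21 for Ncaph2. Without control 1 the changes were -6.10 for Top2a, -5.00 for Ncapg, -2.44 for Smc2 and -0.26 for Top2b (edgeR adjusted p = 0.189 for Top2b).

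Promoters were examined because most of the 10 genes fell together. RefSeq promoters were found for 9 of the 10, all but Smc4, with a second start for Ncapd3. A CHR match was present for 7 of these 9 genes (for Ncapd3 at its second start only), where 19.2% of all 32851 promoters held one. A CCAAT match was present for 5 (37.4% of all), the letters TTTGGCGC, TTTCCCGC, TTTGCCGC or TTTCGCGC of an E2F site in 3 (2.26% of all) and the GC box GGGCGG in 8 (35.7% of all), each on either strand. The E2F matches were in Ncapg, Ncapg2 and Ncapd2. Ncaph, which fell 8.78-fold, held no CHR, CCAAT, E2F or GC box match in its window, while Ncaph2, which changed least among the condensin genes, held a CHR match 22 bases before its start. A match describes the letters only.

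The regions of Ncapg and Ncapd2, condensin I genes whose whole promoters hold CHR, CCAAT and E2F matches, and of Ncaph2, with a CHR match alone of these, are shown with capitals for CHR, CCAAT and E2F letters. They lie at chr5:45669759-45669918 on the plus strand, chr6:125191702-125191800 on the minus strand and chr15:89355660-89355718 on the plus strand of GRCm38.p6, clear of annotated exons.
Ncapg: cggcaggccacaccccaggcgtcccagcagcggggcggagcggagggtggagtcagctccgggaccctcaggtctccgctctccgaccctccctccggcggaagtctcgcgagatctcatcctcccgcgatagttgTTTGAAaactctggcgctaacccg
Ncapd2: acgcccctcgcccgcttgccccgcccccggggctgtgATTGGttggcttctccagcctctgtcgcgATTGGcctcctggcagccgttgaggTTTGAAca
Ncaph2: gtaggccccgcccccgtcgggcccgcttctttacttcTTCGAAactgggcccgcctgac
The CHR match of Ncapg begins 30 bases before its start. For Ncapd2 the 115 bases next to the RefSeq start are left out, as they lie inside the gene annotated in GENCODE M21. The E2F matches of both genes, the CCAAT match of Ncapg and the CCAAT match of Ncapd2 nearest its start lie outside the stretches printed.

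**Figure D5:**
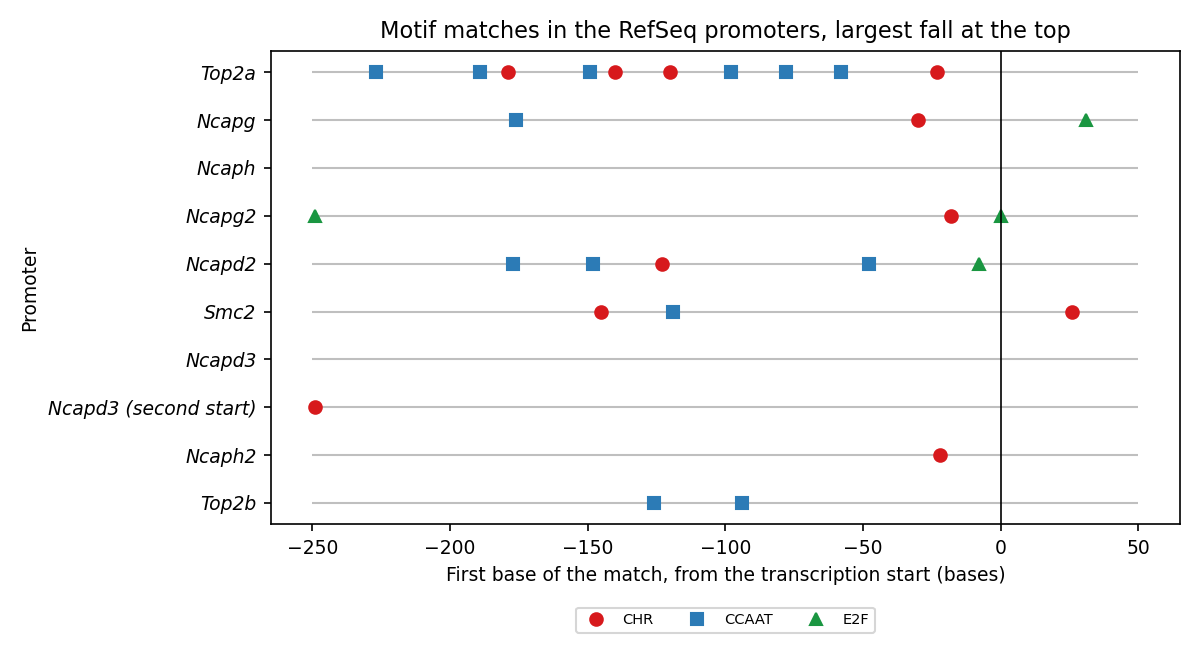
Position of the first base of each CHR (red circle), CCAAT (blue square) and E2F (green triangle) match from the RefSeq transcription start, in bases, for 10 promoters ordered by the change of their gene with the largest fall at the top. The Top2a promoter carries 6 CCAAT and 4 CHR matches, and those of Ncaph and of the first start of Ncapd3 carry none of the 3.

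Regulators of condensin and topoisomerase II fell with them. Of 25 such genes, 17 passed the test as lower and 0 as higher (median -1.71), where 12.3% of all tested genes were lower. Bub1, the checkpoint kinase that marks centromeres, went from 23.2 ± 9.84 to 0.0725 ± 0.0686 CPM (-8.23 ± 0.69, adjusted p = 2.6e-04). Aurkb, the kinase that helps load condensin I, changed by -6.85 ± 0.62 (33.6 ± 8.20 to 0.277 ± 0.240 CPM). Both Bub1 and Aurkb were near 0 in every iKO-labelled library, so the sizes of their falls are uncertain. Under the 18 alternatives the change ran from -9.09 to -2.53 for Bub1 and from -7.62 to -3.45 for Aurkb. Ccna2, the cyclin of S phase and mitotic entry, changed by -4.98 ± 0.45. Set, a histone chaperone and phosphatase inhibitor, stayed abundant at 579 ± 45.7 CPM after a fall of -1.11 ± 0.07 from 1246 ± 48.2 CPM. Of the genes outside the rule for named genes, and chosen after their values were seen, Cdk1, the mitotic kinase that activates condensin, changed by -4.63 ± 0.43 and Mcph1, which restrains condensin II in interphase, by -1.71 ± 0.31 (19.2 ± 4.73 to 5.84 ± 2.03 CPM, adjusted p = 0.00755). Plk1, another activating kinase, was at 4.96 ± 2.27 and 2.49 ± 1.60 CPM, which was not past the test (adjusted p = 0.336). Csnk2a2, a subunit of casein kinase 2, was at 0.68 ± 0.21 (adjusted p = 0.0519). It was the 1 gene of the 25 higher at an unadjusted edgeR p under 0.05, and 1 gene of the list was called higher under 10 of 18 alternatives, DESeq2 and limma-voom among them.

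Other proteins of the mitotic chromosome were lower too. Of 15 scaffold and periphery genes, 11 passed as lower and 0 as higher (median -0.82), with 0 higher also by DESeq2, limma-voom and an unadjusted edgeR p, where 12.3% of all tested genes were lower. Mki67, the surfactant of the chromosome surface, changed by -4.85 ± 0.27 (38.2 ± 6.11 to 1.32 ± 0.385 CPM, adjusted p = 6.6e-05) and the chromokinesin Kif22 by -3.87 ± 0.30. Hmgb2, a DNA-bending protein of dividing cells, went from 136.9 ± 16.2 to 29.6 ± 2.28 CPM (-2.21 ± 0.13), and the nucleolar chaperone Npm1 from 2344 ± 62.2 to 1324 ± 119 CPM (-0.82 ± 0.07).

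Other topoisomerases and the other SMC rings were read in the same way, beside the 12.3% of all tested genes called lower and 8.15% called higher. Of 10 other topoisomerases and partners, 3 passed as lower and 0 as higher (median -0.58): Tdp1, which removes topoisomerase I from DNA ends (-1.67 ± 0.19), the helicase Blm (-1.50 ± 0.25) and the replication checkpoint protein Topbp1 (-0.69 ± 0.11). Topors, a ligase that binds topoisomerase I, was at -0.35 ± 0.11 (adjusted p = 0.0673), and Top1 itself, chosen after its value was seen, at 0.35 ± 0.13 (adjusted p = 0.105). Top1 was the 1 gene of this list higher at an unadjusted edgeR p under 0.05, and DESeq2 called 1 gene higher and limma-voom 0. Of 12 tested genes of the other SMC complexes, 4 passed as lower and 0 as higher (median -0.21). These were the cohesin arms Smc1a (-0.70 ± 0.13) and Smc3 (-0.47 ± 0.12) and the Smc5/6 subunits Nsmce4a (-1.52 ± 0.26) and Nsmce1 (-0.60 ± 0.18). Smc6 was the 1 gene higher at an unadjusted edgeR p under 0.05 (0.25 ± 0.11), and DESeq2 and limma-voom called 0 higher. Whether condensin fell more than cohesin was not tested. The calls of Smc3 and Nsmce1 ended under 8 and 10 of 18 alternatives, each without control 2, control 3 or iKO 3 among others, and the count of 4 was 2 in each of these 3 cases.

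Genes with the most similar profile were taken as those with the smallest Euclidean distance between centred log2 CPM over the 6 libraries, among the 8606 genes whose mean log2 CPM reached 3. For Top2a these were Pclaf, a partner of the sliding clamp (distance 2.22, change -5.90), Ccna2 (2.35) and Cdc6, which loads the replicative helicase (2.58, change -5.33). None of the 3 had its lowest value in iKO 2, as Top2a did. For Smc2 the profiles were closer: Cks1b, a subunit of cyclin-dependent kinases (distance 0.460, change -2.24), Acta2, the smooth muscle actin (0.471, change -2.24), and Tyms, thymidylate synthase (0.585, change -2.14). The distance is set mostly by the difference between the groups, which all these genes share.

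Markers of other cell types were measured beside these falls. Summed CPM of the 10 macrophage markers ran from 189 to 279 in the controls and from 188 to 319 in the iKO-labelled libraries, those of 8 endothelial markers from 61.5 to 175 and from 90.5 to 122, and those of 8 fibro-adipogenic markers from 1015 to 1129 and from 848 to 1165. These 3 sums overlapped between the groups and none of their markers was called. The 7 neutrophil markers summed to at most 9.31 CPM, the 7 T and B cell markers to at most 4.14 CPM and the 6 Schwann cell markers to at most 49.8 CPM in any library. The sums of 2 lists lay lower in the iKO-labelled libraries without overlap. The 7 pericyte and smooth muscle markers summed to 228 to 326 CPM in the controls against 108 to 131 CPM, with 1 of 7 called lower (Acta2, from a mean of 197 to 41.9 CPM). Without Acta2 the other 6 summed to 38.1 to 140.3 CPM and 63.4 to 96.9 CPM, which overlapped. The 8 muscle fibre markers summed to 69.4 to 110.3 CPM in the controls against 27.6 to 27.7 CPM, with 2 of 7 tested called lower. Over all tested genes 12.3% were called lower, and nothing is read from the counts called in these lists. No marker of any list was at 0 in all libraries. The part of these cells in the falls of condensin and Top2a was not tested.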

How the data were processed

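Satellite cell RNA from 3 control and 3 iKO-labelled libraries was copied by the Smart-Seq2 protocol, which does not mark strand, per the labels' protocols. The authors deposited raw counts per gene and FPKM; mm10, STAR, featureCounts, Subread, Trim Galore and DESeq2 are listed in the submitters' processing notes, with neither versions nor roles. Size factors by median of ratios account for the scale of the deposited FPKM (to within 9.3e-15, over 11939 genes that reached 20 counts in all 6 libraries). Of 46078 rows, 551 without a gene name (0.108% to 0.123% of counts) were left out. Counts were fitted in edgeR 4.0.16 (R 4.3.3) with TMM factors, filterByExpr (minimum count 10, minimum total 15) and group as the only term; SE is the log2 fold change over the root of F. The test was checked on simulated data. Alternatives were DESeq2 1.42.0, limma 3.58.1 (voom, log2 FPKM), other scalings and filters, a 1.5-fold null, the replicate number as a block and each library left out. Pair ratios used counts + 0.5 and an exact permutation test (scipy 1.17.1). Named genes are the 10 members, Paxbp1, up to 4 genes of each list with the smallest adjusted p, and 3 genes most like Top2a and Smc2 each. Members and lists were chosen with earlier results of these data known. Promoters are from RefSeq (GRCm38.p6) and exons from GENCODE M21 (GRCm38).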

Additional observations from a re-analysis of the deposited data

How the results depend on the processing

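The number of genes called was 3315, of which 39.9% were higher. It was 817 against a 1.5-fold change, and 2053 to 2816 with a library left out (2053 without iKO 2, 2103 without iKO 3). Upper-quartile scaling gave 49.6% of calls higher and library totals 57.2%, the latter with a shift of 0.13 in the median log2 fold change of all genes. Of the 10 condensin and topoisomerase II genes, 6 to 10 were called lower and 0 higher under the 18 alternatives, and none changed sign. The calls of Ncapd3, Ncaph2 and Smc4 ended against a 1.5-fold change.

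Among the regulators, 1 gene was called higher with RLE factors, upper-quartile factors, library totals, no count filter, a filter of 5 CPM in 3 libraries, DESeq2, limma-voom and limma on filtered log2(FPKM + 1) or log2(FPKM + 0.1), and 0 to 1 with a library left out. Of the other topoisomerases, 5 were lower without a count filter and 6 with DESeq2, and 1 was higher with library totals, no count filter, the 5 CPM filter and DESeq2. Of the other SMC complexes, 2 were lower with library totals and unfiltered log2(FPKM + 1), 1 against a 1.5-fold change and 2 to 4 with a library left out, and 1 was higher with library totals and the 5 CPM filter. Of the resting cell genes, 0 were lower and 1 higher against a 1.5-fold change, 1 lower and 1 higher on unfiltered log2(FPKM + 1), and 1 to 2 lower and 1 to 3 higher with a library left out. The cause of these differences was not tested.

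The design speaks of 3 pairs of mice, but no label ties replicate numbers to pairs, and the data gave no sign of pairing by number: deviations of same-numbered libraries correlated at -0.067, -0.0021 and -0.059, and no library correlated best with its own number. With the replicate number as a block, 2215 genes were called, among them 8 of the 10 condensin and topoisomerase II genes as lower. The call of Ncaph2 ended (edgeR adjusted p = 0.0501), and 2 genes of the other SMC complexes and 1 resting cell gene were lower. Differences within numbers were added after seeing the data. Their mean equals the difference of the group means by arithmetic, so the 5 pair differences could not change. The exact sign-flip p was 0.25, the smallest for 3 pairs. Low counts limit Ncapg, Top2a, Bub1 and Aurkb in the iKO-labelled libraries.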

Other observations

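Among 11 genes of resting satellite cells, 2 rose and 2 fell (median log2 fold change 0.17). Over all tested genes 8.15% rose and 12.3% fell, so that with 11 genes these counts are close to the background, and nothing is read from them about the list. Pax7, the transcription factor of satellite cells, went from 11.3 ± 2.14 to 49.5 ± 1.70 CPM (2.13 ± 0.17, edgeR adjusted p = 2.2e-04) and Calcr, the calcitonin receptor of quiescent cells, from 43.6 ± 12.5 to 81.0 ± 23.3 CPM (0.89 ± 0.27, adjusted p = 0.0483). Calcr was no longer called with control 1, control 2, iKO 2 or iKO 3 left out, where its adjusted p reached 0.166. Gas1, a growth arrest protein, fell by 0.82 ± 0.12 (adjusted p = 0.00242) and Chrdl2, an antagonist of bone morphogenetic proteins, by 1.06 ± 0.27 (adjusted p = 0.0266). Chrdl2 was no longer called with control 1, control 3 or iKO 3 left out, where its adjusted p reached 0.0776.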
